A study of Mus musculus with 6 samples.

Results

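The 9 genes described here encode receptors and adaptors of the tumour necrosis factor (TNF) receptor superfamily that serve B cells. They are the receptors for the survival cytokines BAFF and APRIL (Tnfrsf13b, Tnfrsf13c and Tnfrsf17), the receptor gene Cd27, and the TRAF adaptor genes Traf1, Traf2, Traf3, Traf5 and Traf6. They were taken by gene name from a table of 55421 genes, in which all 9 were found, and 8 of them had a mean of at least 10 normalized reads and entered the test. The 6 libraries hold RNA of germinal centre B cells, sorted by green fluorescence from the spleens of C57BL/6 mice carrying a GFP reporter, on day 9 after immunisation with NP(18)OVA in alum. Of these, 3 libraries are labelled wildtype and 3 SFR KO. SFR KO mice carry a deletion that starts in the first intron of Cd244, ends within Slamf6 and takes out 7 genes of the SLAM family of surface receptors, to which none of the 9 genes belongs. Both groups carry the reporter and both were immunised, so no unimmunised or unsorted sample serves as a control. The gate rests on the reporter alone, and the labels give neither age nor sex. They number the samples without saying whether each came from its own mouse, so a p-value here reflects the spread between samples, which may be technical.

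BAFF and APRIL are secreted by myeloid and stromal cells and keep B cells alive. BAFF-R, the product of Tnfrsf13c, binds BAFF and carries the survival signal of mature B cells. TACI (Tnfrsf13b) and BCMA (Tnfrsf17) bind BAFF and APRIL, and BCMA is known as the receptor of plasma cells. CD27 binds CD70 and marks memory B cells in humans, while in mice it is also carried by most T cells. TRAF proteins bind the cytoplasmic tails of such receptors. In resting B cells TRAF2 and TRAF3, with the ubiquitin ligases cIAP1 and cIAP2, keep the kinase NIK unstable. Receptor ligation draws TRAF3 away, NIK accumulates, and the NF-kB2 precursor is processed in what is called the alternative arm of NF-kB signalling. TRAF6 and TRAF2 also feed the canonical arm through ubiquitin chains and the kinase TAK1.

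The 4 receptor genes lay at both ends of the expression range, and 3 of their promoters are shown because Tnfrsf13c had the highest level, Tnfrsf17 the lowest, and Cd27 the largest fold difference between genotypes. Each sequence runs from 250 bases before to 50 bases after the start of the gene (RefSeq, build GRCm38.p6, in the direction of transcription), and all 9 members matched that table. The Tnfrsf13c window is chr15:82224331-82224630 on the minus strand, the Cd27 window chr6:125236978-125237277 on the minus strand, and the Tnfrsf17 window chr16:11313559-11313858 on the plus strand. Capitals mark every E-box, CANNTG, the 6-base motif that E proteins such as E2A bind, which reads as the same motif on both strands.
Tnfrsf13c: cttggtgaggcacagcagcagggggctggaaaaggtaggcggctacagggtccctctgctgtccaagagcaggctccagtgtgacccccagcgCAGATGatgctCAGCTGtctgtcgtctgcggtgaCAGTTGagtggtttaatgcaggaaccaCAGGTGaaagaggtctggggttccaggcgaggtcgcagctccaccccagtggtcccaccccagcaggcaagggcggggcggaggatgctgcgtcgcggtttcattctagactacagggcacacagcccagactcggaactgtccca
Cd27: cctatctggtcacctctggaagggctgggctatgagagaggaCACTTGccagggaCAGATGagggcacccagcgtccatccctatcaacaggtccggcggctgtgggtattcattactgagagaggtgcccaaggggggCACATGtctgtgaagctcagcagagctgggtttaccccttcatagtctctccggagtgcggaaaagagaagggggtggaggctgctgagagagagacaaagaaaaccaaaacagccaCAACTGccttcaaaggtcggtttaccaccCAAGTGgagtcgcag
Tnfrsf17: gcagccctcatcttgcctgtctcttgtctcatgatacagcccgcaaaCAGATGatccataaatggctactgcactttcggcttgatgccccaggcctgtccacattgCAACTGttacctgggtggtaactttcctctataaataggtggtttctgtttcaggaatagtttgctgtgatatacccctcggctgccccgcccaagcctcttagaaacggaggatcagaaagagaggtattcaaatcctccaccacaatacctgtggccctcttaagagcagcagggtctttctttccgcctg

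The Tnfrsf13c window held 4 E-boxes, the Cd27 window 5 and the Tnfrsf17 window 2, and that of Tnfrsf13b held 0. Of 32851 promoter windows of this length, 72.3% held at least 1 E-box, 6.49% at least 4 and 2.1% at least 5. Of the 9 members, 7 had at least 1. The NF-kB consensus, searched on both strands, was in the window of Traf3 alone among the 9 and in 8.46% of all windows. A narrower form, with A as its free purine and T at both free pyrimidines, was searched first; it was in 0 of the 9 windows and in 1.47% of all. The motifs were chosen after the expression values were seen. TATAAA, searched on both strands, was in the window of Tnfrsf17 alone among the members and in 13.6% of all windows. The purine-rich core GAGGAA, which PU.1 binds, was in 4 of the 9 windows (Traf2, Traf3, Traf6 and Tnfrsf17) and in 28.3% of all windows. CpG pairs ranged from 4 in the Traf1 window to 59 in the Traf3 window, against a median of 7 over all windows. These matches describe letters in a fixed window, and no binding was measured.

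Per length, Tnfrsf13c and Tnfrsf13b stood above the adaptors, and Cd27 and Tnfrsf17 below them. Levels here are normalized reads per kilobase of merged exons, averaged over the 6 libraries. Tnfrsf13c stood at 7318 (range over libraries 6765 to 7921), in the 97.5th percentile of tested genes by read number. Tnfrsf13b followed at 1624 (1472 to 1935), so that BAFF-R transcripts exceeded TACI transcripts in each library, by a ratio of 3.5 in SFR KO 1 and of 4.63 to 5.05 in the others. Traf5, an adaptor of CD40 and CD27 among other receptors, came next at 580 (533 to 638). Traf2 at 395 (364 to 445), Traf3 at 377 (312 to 421) and Traf1 at 367 (335 to 395) had overlapping ranges and no order among them. Traf6, the adaptor that Toll-like receptors and CD40 share, stood below them at 239 (226 to 253). Cd27 lay far lower at 11.1 (7.18 to 15.2), and Tnfrsf17 at 1.63 (0 to 4.84). When the longest transcript was used as the length, Traf1 moved from the sixth to the fourth place at 942 normalized reads per kilobase, ahead of Traf2 at 489, while the first 3 and the last 3 places stayed with the same genes. The order of Traf1, Traf2 and Traf3 therefore depends on the length chosen.

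**Figure D1:**
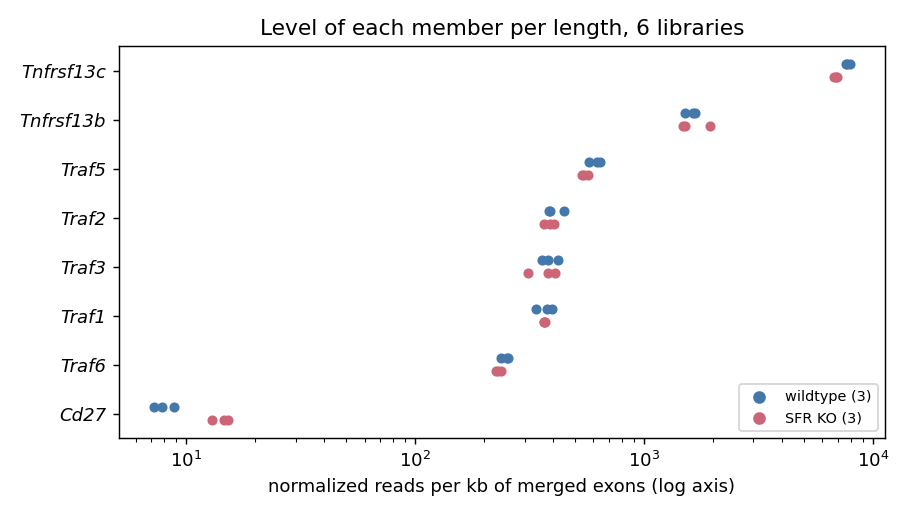
Level of each tested member in each library, as normalized reads per kilobase of merged exons on a log axis, with wildtype libraries in blue and SFR KO libraries in red. Tnfrsf13c lies at the top between 6765 and 7921, and Cd27 at the bottom between 7.18 and 15.2; Tnfrsf17, with 0 reads in 3 libraries, is not drawn.

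The cells carried the transcripts of germinal centre B cells. Bcl6, the defining regulator, had 14731.8 to 16046.3 normalized reads across the wildtype libraries, against 13496.4 to 14234.9 across those of SFR KO (limma adjusted p = 0.245). Of the 13 markers listed for these cells, groups were apart on the higher side for 3, against 9.78% of all tested genes. They were apart on the lower side for 1, Bcl6, against 11.9%. Limma and edgeR called 0 of the 13 and DESeq2 called 1, Gcsam, against 4.84% of all genes with an adjusted p. None of the marker genes listed for any cell type was at 0 in all libraries. The depth was 28269310 to 33053024 gene reads a library. All 7 deleted genes were lower in SFR KO libraries, at summed levels of 5.47 to 16.8 normalized reads against 10457 to 20669 in wildtype. Myeloid and red cell markers summed to between 2761 and 14851 normalized reads in wildtype, the highest in wildtype 1, and to between 2421 and 6868 in SFR KO libraries. Such sums cannot tell fewer cells of a type from less RNA per cell, and the same holds for every bulk level given below. SFR KO 1 stood apart within its group. Its reads differed from those of SFR KO 2 and 3 by a chi-square per gene of 16.9 and 24.5, against 6.11 between those 2 libraries and 12.5 to 13.5 within wildtype. Its sample weight of 0.422 was the lowest of the 6. Without it limma called 501 genes in place of 63, and 0 of the members in both fits.

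The 3 SFR KO libraries were then compared with the 3 wildtype libraries. Differences are log2 of SFR KO over wildtype on normalized reads plus 1, with limma's adjusted p over all 13562 tested genes. No member passed the adjusted threshold of 0.05; limma called 0.465% of all tested genes. Of the 8 tested members, 3 had an unadjusted p under 0.05, against 16.1% of all tested genes. Groups did not overlap for 3 of the 8, Tnfrsf13c and Traf5 on the lower and Cd27 on the higher side, against 21.7% of all tested genes. Of these 8 differences, 6 were below 0, against 50.7% of all tested genes, and their median was -0.08, against -0.00297 over all tested genes. On the recovered reads edgeR called 0 members (0.221% of all genes) and DESeq2 called 1, Tnfrsf13c (4.84%). Limma with sample weights called the same gene (4.65% of all genes), and limma with the GC trend removed called 0 members (0.147%).

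**Figure D2:**
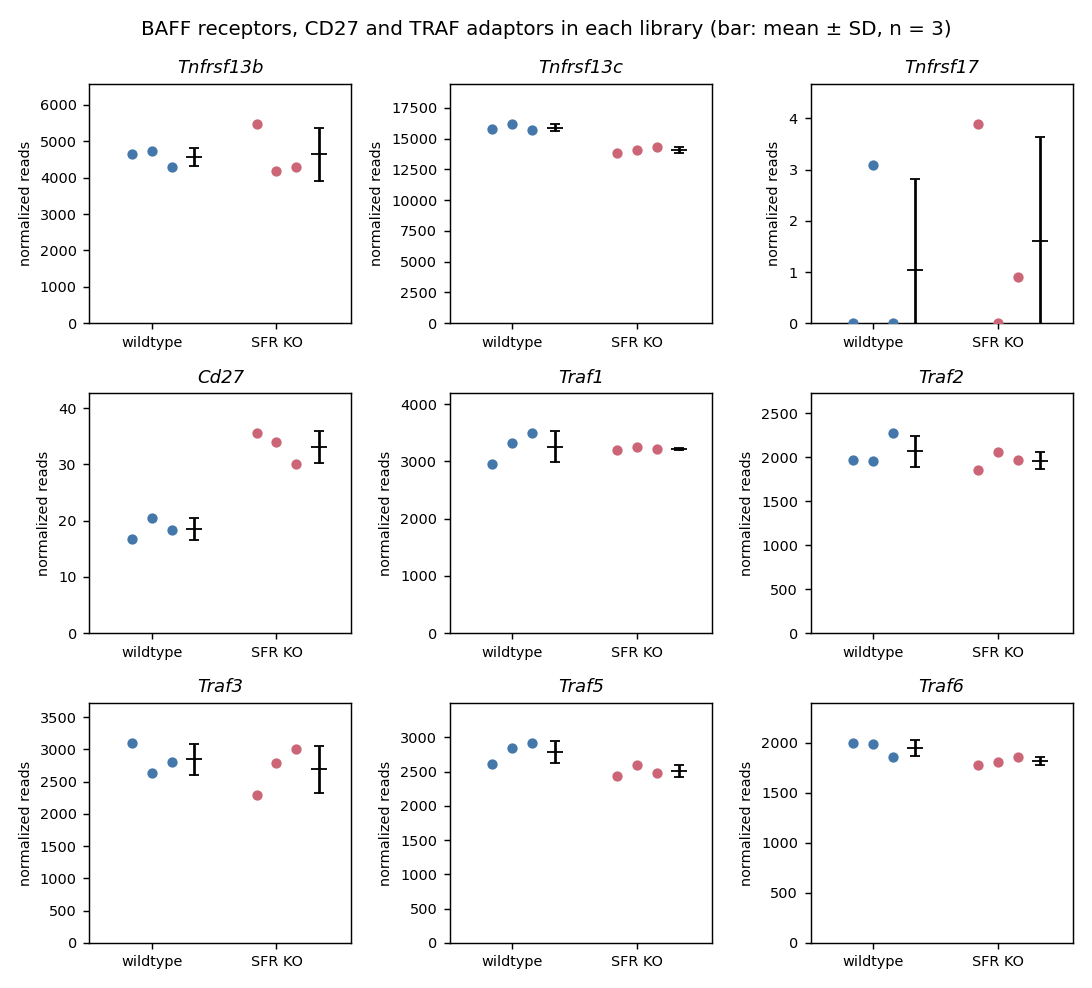
Normalized reads of each of the 9 members in each library, 1 point per library, with the mean and SD of each group (n = 3) beside the points and each axis starting at 0. The groups are apart for Tnfrsf13c, Cd27 and Traf5 and overlap for the other 6 members; the bars of Tnfrsf17 are clipped at 0.

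Tnfrsf13c, the BAFF-R gene (ENSMUSG00000068105, chromosome 15, 82221743 to 82224369, GRCm38), had 15813.6, 16222.8 and 15660.2 normalized reads in wildtype 1, 2 and 3. It had 13855, 14060.5 and 14312.6 in SFR KO 1, 2 and 3. Every SFR KO library lay below every wildtype library, and the spread within a group was 1.83% of the mean in wildtype and 1.63% in SFR KO libraries. The means were 15899 ± 290.8 and 14076 ± 229.2 (SD, n = 3 each), so that the SFR KO mean was 0.885 times that of wildtype. The log2 difference was -0.18 ± 0.04 (SE; 95% interval -0.27 to -0.08), with a limma adjusted p = 0.114. The adjusted p ran from 0.0139 to 0.338 over the 15 alternatives, and 2 of these, DESeq2 at 0.0139 and limma with sample weights at 0.0374, passed the threshold. The authors' deposited table gives a log2 fold change of -0.18 and an adjusted p of 0.0211 for Tnfrsf13c, and calls 4.8% of the genes that have an adjusted p there. The log2 difference lay between -0.19 and -0.16 in all 15 alternatives.

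Tnfrsf13b, the TACI gene (ENSMUSG00000010142, chromosome 11, 61126755 to 61149372), stood at 4656.5, 4742.9 and 4293.4 normalized reads in wildtype and at 5486.4, 4174.5 and 4279.2 in SFR KO libraries. SFR KO 1 was the highest library of all and SFR KO 2 the lowest, so that the groups overlapped fully. The log2 difference was 0.02 ± 0.10 (95% interval -0.20 to 0.24; limma adjusted p = 0.958). It was -0.11 without SFR KO 1. Fcer2a, the CD23 gene of resting B cells, was likewise highest of the SFR KO group in SFR KO 1, at 6270.8 normalized reads against 2546.5 and 2150.4, and wildtype had 5421.1, 6382 and 4275.1. Of the 12 resting B cell markers, 10 had differences below 0, with a median log2 difference of -0.30. Groups were apart on the higher side for 1, against 9.78% of all tested genes, and on the lower side for 2, against 11.9%. Limma and edgeR called 0, and DESeq2 called 1, against 4.84% of all genes with an adjusted p. That gene, Cd38, was higher in SFR KO libraries (log2 difference 0.56, limma adjusted p = 0.0659), against the direction of most of the list. The unadjusted p was under 0.05 for 6 of the 12, against 16.1% of all tested genes. Their sums were 40755 to 48818 normalized reads across the wildtype libraries, against 40131 to 44836 across those of SFR KO. Bach2, with 16292.1 normalized reads or more in every library, made up the largest part of these sums and had a log2 difference of 0.22 (limma adjusted p = 0.292). Without Bach2, which was left out after its values were seen, the sums were 23638 to 28902 and 19208 to 26513. The part of resting B cells in the values of Tnfrsf13b and Tnfrsf13c was not tested.

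Tnfrsf17, the BCMA gene (ENSMUSG00000022496, chromosome 16, 11313812 to 11320074), was hit by 0, 3 and 0 reads in wildtype and by 4, 0 and 1 in SFR KO libraries. These 8 reads in all are too few for a comparison, and the gene did not enter the test. The ratio of reads, scaled for library size, was 1.69 with a 95% exact binomial interval of 0.329 to 10.9, which covers counting error only. Plasma cell markers were read beside it. Jchain, the joining chain of secreted IgM and IgA, had 22214 to 23175.1 normalized reads across the wildtype libraries, against 24789.1 to 26630.1 across those of SFR KO (log2 difference 0.18, limma adjusted p = 0.128; 0.05 and 0.711 with the GC trend removed). Sdc1, the CD138 gene of plasma cells, had 35.9 to 47.7 and 27.4 to 29.6 (log2 difference -0.59, limma adjusted p = 0.302). The 11 plasma cell markers summed to 44986 to 46616 normalized reads across the wildtype libraries, against 48121 to 49791 across those of SFR KO, and to 22772 to 23441 and 22582 to 24011 without Jchain, which was left out after its values were seen. Of the 10 tested, limma and edgeR called 0, and the unadjusted p was under 0.05 for 3, against 16.1% of all tested genes. DESeq2, which gave Sdc1 no adjusted p, called 1, Jchain, against 4.84% of all genes with one.

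Cd27 (ENSMUSG00000030336, chromosome 6, 125232622 to 125237010) had 18, 20 and 18 reads in the wildtype libraries 1, 2 and 3, against 36, 31 and 32 in the SFR KO libraries. In normalized reads these were 16.7, 20.5 and 18.3 against 35.5, 33.9 and 30. All SFR KO libraries were above all wildtype libraries. The ratio of reads, scaled for library size, was 1.79 with a 95% exact binomial interval of 1.28 to 2.53, for counting error only. The log2 difference was 0.81 ± 0.28 (95% interval 0.17 to 1.45; limma adjusted p = 0.218), and no alternative passed the threshold, at adjusted p-values of 0.117 to 0.454. DESeq2 and the authors' deposited table give Cd27 no adjusted p. 

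T cells carry CD27 too, and T cell markers were read beside it. The wildtype values of Cd3e were 94.8, 68.7 and 46.7 normalized reads, and the SFR KO values 101.5, 120.4 and 118 (log2 difference 0.74, limma adjusted p = 0.214). Of the 13 T cell markers, 10 had differences above 0, and groups were apart on the higher side for 3 (Cd3d, Cd3e and Trac), against 9.78% of all tested genes. Limma and edgeR called 0 of the 13. DESeq2 called 1, Lck, of the 6 to which it gave an adjusted p, against 4.84% of all genes with one. The unadjusted p was under 0.05 for 6 of the 13, against 16.1% of all tested genes. The CD8 gene Cd8a had 41.6 to 59.5 normalized reads across the wildtype libraries, against 22.5 to 52.2 across those of SFR KO, so the markers lay on both sides of 0. The list summed to 4489 to 4942 normalized reads across the wildtype libraries, against 5046 to 7222 across those of SFR KO. Most of that was Lck, a kinase gene with 3797.1 normalized reads or more in every library. Without Lck, which was left out after its values were seen, the sums were 563 to 1145 and 1067 to 1235 and overlapped. The part of T cells in the Cd27 values was not tested.

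**Figure D3:**
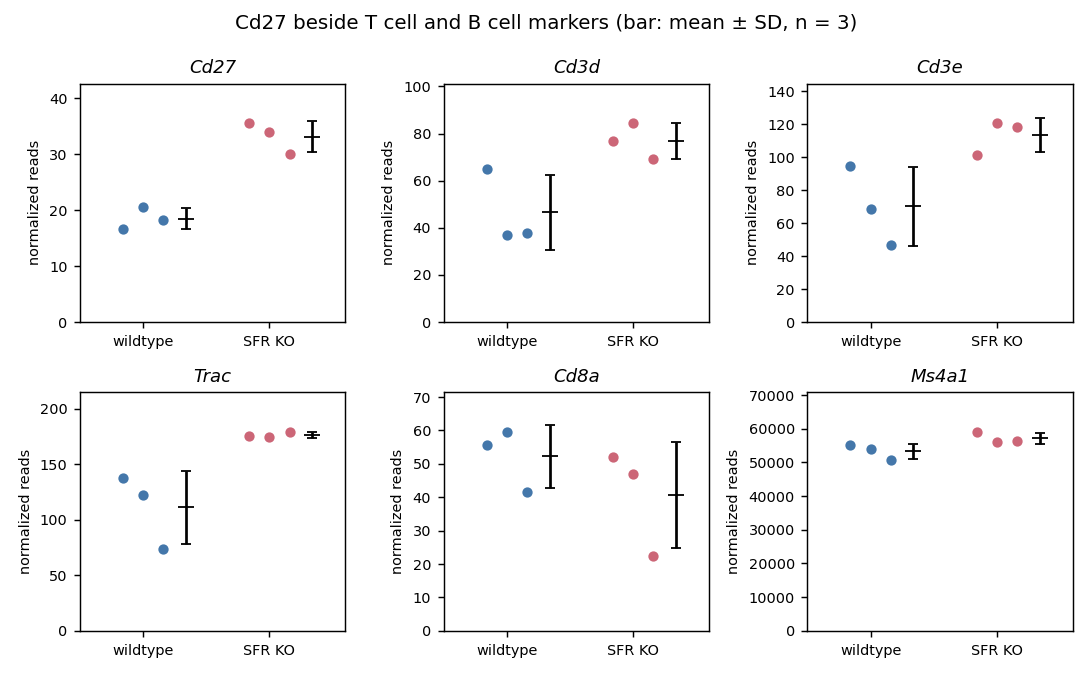
Normalized reads of Cd27, of 4 T cell markers and of the B cell marker Ms4a1 (the CD20 gene) in each library, with the mean and SD of each group (n = 3) and each axis starting at 0. Cd27, Cd3d, Cd3e, Trac and Ms4a1 are higher in all SFR KO libraries than in all wildtype libraries, Ms4a1 by a log2 difference of 0.10 (limma adjusted p = 0.422), while the groups overlap for Cd8a.

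Among the adaptors, all 5 differences were below 0, against 50.7% of all tested genes, and limma called 0. EdgeR and DESeq2 also called 0 of them, and the unadjusted p was under 0.05 for 1, Traf5, against 16.1% of all tested genes. Without wildtype 2 or 3, or with the GC trend removed, the difference of Traf1 was above 0, and without SFR KO 1 that of Traf3. Traf5 (ENSMUSG00000026637, chromosome 1, 191997205 to 192092559) had 2607.9, 2851.5 and 2914.1 normalized reads across the wildtype libraries, against 2433.8, 2601.2 and 2484.7 across those of SFR KO. The groups were apart by the small gap between SFR KO 2 and wildtype 1. The SFR KO mean was 0.898 times that of wildtype (log2 difference -0.15 ± 0.06; 95% interval -0.29 to -0.02; limma adjusted p = 0.249). With each library's trend with GC content removed the log2 difference was -0.23 (adjusted p = 0.221); the longest Traf5 transcript has a GC content of 40.8%, against a median of 49.4% over tested genes. Traf5 is the only member on the chromosome of the deleted genes, the last of which ends at position 171953170, ahead of Traf5. An antisense gene, Gm26879, shares 205 exonic bases with it and had 50 reads in the 6 libraries together. No source used here states whether the counting was stranded, so reads within the shared bases cannot be told apart.

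Traf6 (ENSMUSG00000027164, chromosome 2, 101678429 to 101701669) had 1993.8, 1985.8 and 1858.7 normalized reads across the wildtype libraries, against 1780.5, 1802 and 1861 across those of SFR KO. The groups touched, since SFR KO 3 lay just above wildtype 3. The log2 difference was -0.10 ± 0.06 (95% interval -0.23 to 0.03; limma adjusted p = 0.423).

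Traf2 and Traf3, the adaptors that hold NIK in check, did not pass the threshold either. Traf2 (ENSMUSG00000026942, chromosome 2, 25517982 to 25546940) had 1968.7, 1962.2 and 2272.1 normalized reads across the wildtype libraries, against 1858.4, 2057.1 and 1970.5 across those of SFR KO. Its log2 difference was -0.07 ± 0.07 (95% interval -0.24 to 0.09; limma adjusted p = 0.675). Traf3 (ENSMUSG00000021277, chromosome 12, 111166370 to 111267153) had 3095.6, 2632 and 2804.4 normalized reads across the wildtype libraries, against 2290.9, 2791.7 and 2998.9 across those of SFR KO. SFR KO 1 was its lowest library, and without it the log2 difference was 0.03 in place of -0.08 ± 0.10 (95% interval -0.31 to 0.14; limma adjusted p = 0.735). Within a library, the ratio of Traf3 to Traf2 per kilobase was 0.96 ± 0.12 in wildtype and 0.951 ± 0.101 in SFR KO libraries (SD, n = 3 each), a difference far inside the spread.

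Traf1 (ENSMUSG00000026875, chromosome 2, 34941750 to 34961772), the adaptor that lacks the RING finger of the other TRAFs and is itself induced by NF-kB, had 2955.4, 3319.2 and 3486.9 normalized reads in wildtype. It had 3204.4, 3240.6 and 3216.2 in SFR KO libraries, all inside the wildtype range. The log2 difference was -0.01 ± 0.06 (limma adjusted p = 0.953), and the 95% interval of -0.16 to 0.13 limits a change to between 0.897 and 1.1 times wildtype. Its sign turned in 3 of the 15 alternatives. For Traf3, Tnfrsf13b and Traf2, which had the widest intervals after Cd27, the intervals run from 0.808 to 1.1, from 0.868 to 1.18 and from 0.848 to 1.06 times wildtype.

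**Figure D4:**
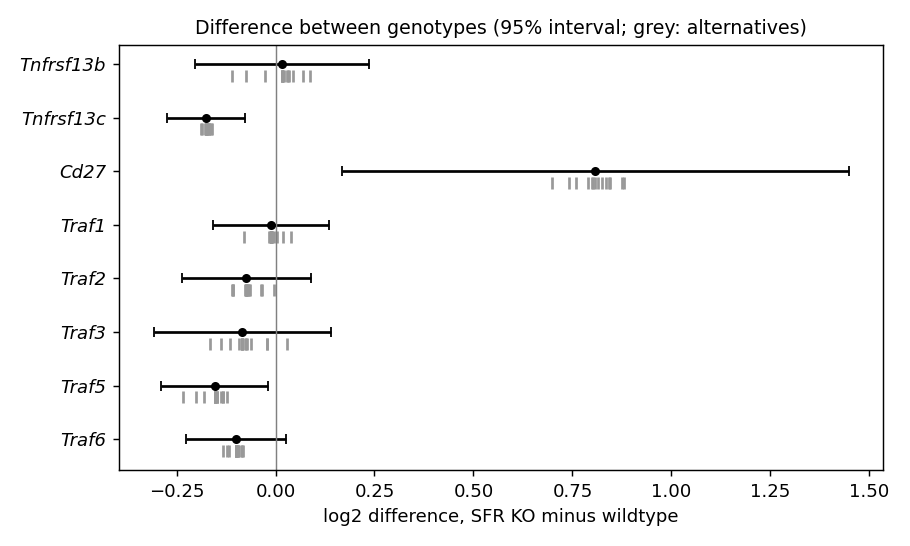
Log2 difference of SFR KO minus wildtype for the 8 tested members (black point with the 95% interval from limma) and its value under each alternative setting (grey ticks). Tnfrsf13c at -0.18 and Traf5 at -0.15 have intervals below 0 and Cd27 at 0.81 has one above 0; none passed the adjusted threshold.

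Other genes of the pathway were read from 6 lists with 80 genes, of which 76 were tested. Limma called 1 higher, against 0.155% of all tested genes, and 0 lower, against 0.31%. Groups were apart for 15 of the 76 on the lower side, against 11.9% of all tested genes, and for 5 on the higher side, against 9.78%. Of the 76 differences, 52 were below 0, against 50.7% of all tested genes, with a median of -0.07, against -0.00297. DESeq2, which gave some of the 76 no adjusted p, called 8, against 4.84% of all genes with one. Of these, Otud1 was higher, and Ltb, Cd40, Traf4, Birc2, Map3k14, Nfkb2 and Nfkb1 were lower in SFR KO libraries.

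The gene called by limma was Otud1, a deubiquitinase gene of the list of TRAF partners and regulators. It had 3628, 3518.2 and 3910.5 normalized reads across the wildtype libraries, against 4612.4, 5027.3 and 4764.3 across those of SFR KO, and rose 1.3-fold (log2 difference 0.38 ± 0.06, limma adjusted p = 0.0368). The call held in 10 of 15 alternatives. It was lost without wildtype 1 (adjusted p = 0.126), wildtype 2 (0.127), wildtype 3 (0.0845), SFR KO 2 (0.19) or SFR KO 3 (0.0935), at log2 differences of 0.35 to 0.43. Of the 23 genes of this list 17 were below 0, against 50.7% of all tested genes, with a median of -0.07. Birc2 and Birc3, which encode cIAP1 and cIAP2, and Traf4 are named after their values were seen. Birc2 had 1728 ± 100.9 normalized reads for wildtype, against 1422 ± 99.91 for SFR KO (log2 difference -0.28 ± 0.07, limma adjusted p = 0.123). Birc3 had 3892 ± 253.4 and 3368 ± 153.2 (-0.21 ± 0.06, adjusted p = 0.156), and Traf4 1678 ± 180.8 and 1358 ± 54.44 (-0.30 ± 0.08, adjusted p = 0.137). The groups were apart for all 3.

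The list for the alternative NF-kB arm had 5 tested genes, Map3k14, Chuk, Nfkb2, Relb and Otulin, the last of which is not particular to this arm. Of these, limma and edgeR called 0 and DESeq2 called 2, against 4.84% of all genes with an adjusted p. The unadjusted p was under 0.05 for 2 of the 5, against 16.1% of all tested genes. Nfkb2, whose product is the precursor processed in this arm, had 5723, 4895.8 and 5801.7 normalized reads across the wildtype libraries, against 3964.1, 4159.1 and 4541.4 across those of SFR KO. Its log2 difference was -0.37 ± 0.08 (limma adjusted p = 0.0679; 0.000428 with DESeq2). Map3k14, the NIK gene, had 1743.9, 1917.1 and 1979.6 normalized reads across the wildtype libraries, against 1431.7, 1537.1 and 1613.7 across those of SFR KO (log2 difference -0.30 ± 0.07, limma adjusted p = 0.102; 0.0159 with DESeq2). The groups of both genes were apart on the lower side, against 11.9% of all tested genes, and neither passed in the main limma fit. Limma with sample weights called both, Nfkb2 at an adjusted p of 0.0229 and Map3k14 at 0.0328, against 4.65% of all genes. With the GC trend removed the log2 differences of Nfkb2 and Map3k14 stood at -0.33 and -0.25. In the canonical arm 0 of 17 genes were called by limma, with 3 apart on the lower side, against 11.9% of all tested genes, and 1 on the higher side, against 9.78%. There the unadjusted p was under 0.05 for 3 of the 17, against 16.1% of all tested genes. DESeq2 called 1 gene, Nfkb1, against 4.84% of all genes with an adjusted p, where edgeR called 0. Nfkb1 differed by a log2 of -0.19 ± 0.05 (limma adjusted p = 0.138) and Tab3, which presents TAK1 with ubiquitin chains, at -0.17 ± 0.08 (adjusted p = 0.328).

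Of 12 other tested TNF receptor genes, 8 were below 0, against 50.7% of all tested genes. Limma and edgeR called 0 of them, and the unadjusted p was under 0.05 for 4, against 16.1% of all tested genes. DESeq2, which gave some of these genes no adjusted p, called 1, against 4.84% of all genes with one. Cd40, the receptor of T cell help, had 1654.7, 1775.5 and 1874 normalized reads across the wildtype libraries, against 1456.3, 1387.1 and 1534.1 across those of SFR KO (log2 difference -0.28 ± 0.07, limma adjusted p = 0.11; 0.0291 with DESeq2). Tnfrsf10b, a death receptor gene, stood at 78.5 ± 8.97 and 43.5 ± 11.4 normalized reads (log2 difference -0.86 ± 0.25, adjusted p = 0.148). Of the 8 ligand genes, 6 were tested and limma and edgeR called 0. DESeq2 gave an adjusted p only to Lta, Ltb and Tnf and called 1 of them, against 4.84% of all genes with one. The DESeq2 call was Ltb, the lymphotoxin beta gene (log2 difference -0.28 ± 0.08, limma adjusted p = 0.139). For 3 of the 6 tested ligand genes the unadjusted p was under 0.05, against 16.1% of all tested genes. The ligands of the members were scarce in these B cells. Tnfsf13b, the BAFF gene, had 0.9 to 12.2 normalized reads across the wildtype libraries, against 5.9 to 29.6 across those of SFR KO. Tnfsf13, the APRIL gene, had 0 in every library but SFR KO 1, with 3. Cd70, which encodes the ligand of CD27, had 10.2 to 28.8 and 8.9 to 30. Of the 13 listed survival and cell death genes of the BCL2 and PIM families, limma, edgeR and DESeq2 called 0, and the unadjusted p was under 0.05 for 0. Mcl1, which BAFF signalling helps to sustain, stood at 0.09 ± 0.05 (limma adjusted p = 0.358) and Bbc3, the PUMA gene, at -0.25 ± 0.12 (adjusted p = 0.364).

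**Figure D5:**
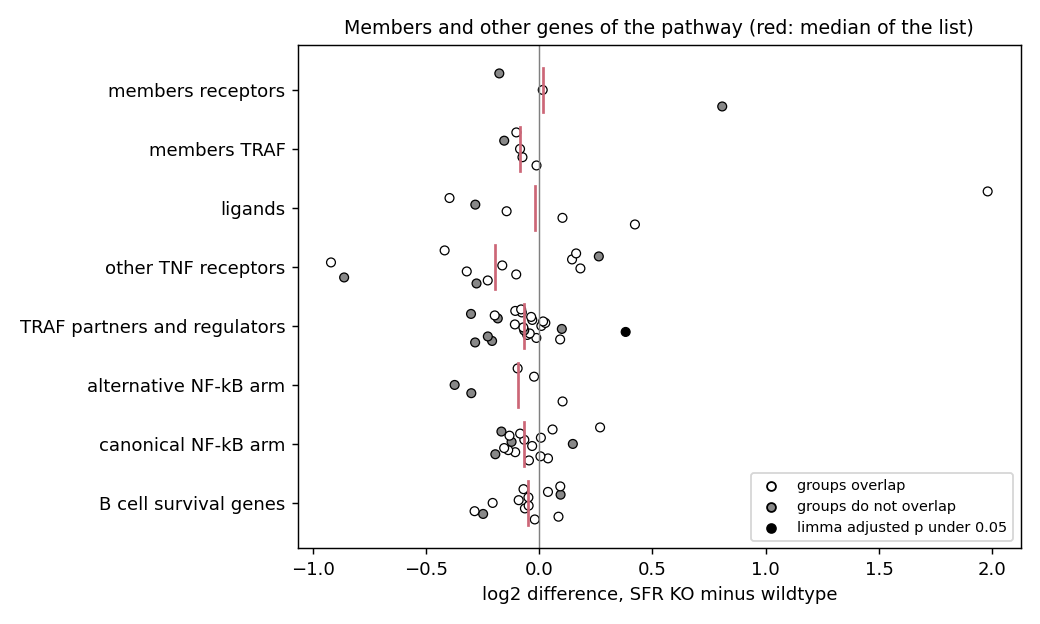
Log2 difference of SFR KO minus wildtype for the tested members and for the tested genes of 6 further lists, 1 point per gene, grey where the groups do not overlap and black where limma's adjusted p is under 0.05; red bars are list medians. Otud1 at 0.38 is the black point.

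The genes most like each receptor gene were sought among tested genes whose mean reached 200 normalized reads, by Pearson's r of log2 values over the 6 libraries, which belong to 2 genotypes. With Tnfrsf13c went Abca3 and Sh3pxd2a (r = 0.995 and 0.994), with Tnfrsf13b E2f5 and Cyb5a (0.99 and 0.985), and with Cd27 Inpp5k and Sbds (0.991 and 0.989). With 8923 or 8924 genes compared over 6 libraries, high values of r are bound to be found, and they describe these libraries. Tnfrsf17 had too few reads for such a comparison.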

How the data were processed

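RNA of 3 wildtype and 3 SFR KO libraries was read from 1 table. The submitters' processing notes name GRCm38 as the build and the tools STAR 2.5, featureCounts 1.5 and DESeq2 1.14.1; the annotation release, strandedness and filters are not stated there. The authors deposited read counts scaled to library size (a signal) for each gene and library with their mean, and for their own comparison a log2 fold change, its standard error, a test score and p-values with adjusted p-values. Values were whole multiples of each library's smallest value (100% at a tolerance of 1e-06), which gave back the reads.

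Groups come from the genotype label and replicates were numbered in accession order. Limma 3.58.1 (lmFit, eBayes with trend; R 4.3.3) was run on log2(normalized count + 1), two-sided, over the 13562 genes whose mean reached 10, with Benjamini-Hochberg adjustment; this scale understates the change of low genes. Alternatives were pseudocounts 0.5 and 5, minimum means of 50 or none, TMM scaling, DESeq2 1.42.0 and edgeR 4.0.16 (quasi-likelihood) on the recovered reads, sample weights, removal of the GC trend (natural spline, 4 degrees of freedom) and each library left out. Only the main limma fit was tested on simulated counts, and the alternatives were not. Over genes with at least 20 reads in both libraries together, the chi-square per gene between libraries of 1 group was 6.11 to 24.5, so none was taken for a repeat of another and all were kept. Positions, exon lengths and GC content came from GENCODE M21 (GRCm38), which matched 99.7% of genes; promoters from RefSeq.

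The rule for named genes takes the 9 members, called genes of each pathway list or else up to 2 of its genes with the largest difference among those whose groups do not overlap, and the 2 genes most like each receptor. Birc2, Birc3, Traf4, the ligand genes Tnfsf13b, Tnfsf13 and Cd70, and the marker genes named fall outside it and were chosen after their values were seen. Members and lists were chosen with earlier results of these data known.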

Additional observations from a re-analysis of the deposited data

How the results depend on the processing

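The number of genes called over all tested genes was 63 and depended on the setting. It was 98 with a minimum mean of 50 normalized reads, 129 with no minimum, 30 with edgeR, 491 with DESeq2, 630 with sample weights and 20 with the GC trend removed; it was 13, 26 and 14 without wildtype 1, 2 or 3, and 501, 11 and 21 without SFR KO 1, 2 or 3. The count of members called was 0, and 1 with DESeq2 and with sample weights, Tnfrsf13c in both, at log2 differences of -0.17 (adjusted p = 0.0139) and -0.17 (0.0374). The count of pathway genes called was 1, and 2 with no minimum, 8 with DESeq2 and 10 with sample weights; with 1 library left out it ran from 0 to 6, with 6 without SFR KO 1 and 0 in the 5 other fits. The fit without a library also has fewer samples; beyond that the cause was not tested. Of 119 member values under alternatives, 110 kept direction and side of the threshold. Cd27 with DESeq2, which has no adjusted p, is counted among these as not called. Direction turned for Tnfrsf13b with sample weights (-0.0754) and, with 1 library left out, over a range of -0.1096 to 0.0875; for Traf1 with the GC trend removed (0.0182) and over -0.0792 to 0.0401; and for Traf3 over -0.1661 to 0.0281. Cd27 has no value with a minimum mean of 50, and Tnfrsf17 none but with no minimum. No paired analysis was possible because the labels give no replicate numbers shared between the groups. Depth limits Cd27, with 155 reads in all, and Tnfrsf17, with 8.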
